A study of Homo sapiens with 6 samples.

Results

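Cassette exons that follow a cytosine-rich stretch of intron were compared between cells with and without induced PCBP1. A cassette exon is an internal exon that some transcripts of a gene carry and others leave out. From the GENCODE 44 annotation on GRCh38, 56657 skipped-exon events were taken in which one transcript includes an exon and another joins the same neighbour ends directly. The members were chosen by sequence and by level. The exon had to be over 30 bases, the intron before it over 100 bases, and the last 40 bases of that intron had to hold at least 16 cytosines. The mean level of the event, which is the TPM of its including and skipping transcripts together, had to be at least 1 over the 6 libraries, and 1 event was kept per gene, the one with the highest level. TPM is Salmon's measure of transcript abundance, in which reads are divided by effective length and every library has the same total. Of 5620 events with the sequence, 2485 reached that level, and these gave 1684 exons in as many genes, called C-rich exons here. Exons with under 16 cytosines, chosen in the same way, numbered 7352 and served for comparison; 1209 genes had an exon in both classes. All 1684 C-rich exons were tested, and 3 of them had no inclusion value in some library because both forms were listed at 0 there.

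The libraries are of polyA RNA from K562, a human leukemia line with red cell and megakaryocyte features, and were made from 3 −Dox (labelled Control) and 3 +Dox (labelled PCBP1 OE) samples. All 6 carry a Flag-PCBP1 cassette under a tet-inducible promoter at the AAVS1 locus, put by recombinase-mediated cassette exchange into K562flox cells, which descend from a single clone, and kept as a polyclonal line under puromycin. The groups therefore differ in doxycycline (Dox) as well as in Flag-PCBP1, and the effects of the drug and of the protein cannot be told apart in them. The dose and time of Dox for these libraries are not given in the sources used here, and nothing there says whether replicates came from separate cultures, so a p-value may measure technical spread only. Salmon assigned 84177316, 80104627 and 74766040 reads to transcripts in −Dox replicates 1, 2 and 3, and 70905656, 82263502 and 82449808 in +Dox replicates 1, 2 and 3.

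Splicing of a cassette exon begins when the end of the intron before it, the 3′ splice site, is recognised. There the U2AF dimer binds a run of pyrimidines and the AG that follows it, and U2 snRNP settles on the branch point a little upstream. Poly(C)-binding proteins (PCBPs) hold KH domains that bind single-stranded cytosine-rich RNA, and PCBP1 has been described to bind such tracts close to 3′ splice sites and to contact splicing factors. In most human introns the tract before the AG is rich in uridine, so introns with a cytosine-rich end form a minority.

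The intron ends below were chosen to show how varied the C-rich tracts are. Each is the last 40 bases of the intron on the strand of the transcript, from GRCh38, and ends at the AG before the exon. Capitals mark runs of at least 3 cytosines. The first 6 precede exons with higher PSI (percent spliced in, the share of an event's TPM on including transcripts) in every +Dox library than in every −Dox library.
CDK2, chr12:55969435-55969474, plus strand, 22 cytosines: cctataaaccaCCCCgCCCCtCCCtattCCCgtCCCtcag
TSPAN32, chr11:2308696-2308735, plus strand, 20 cytosines: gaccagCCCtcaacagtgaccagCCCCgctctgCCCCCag
RUNX1, chr21:34834602-34834641, minus strand, 26 cytosines: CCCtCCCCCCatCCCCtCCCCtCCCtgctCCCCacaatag
SIRT6, chr19:4179287-4179326, minus strand, 23 cytosines: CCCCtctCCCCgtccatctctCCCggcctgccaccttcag
GFI1B, chr9:132989021-132989060, plus strand, 20 cytosines: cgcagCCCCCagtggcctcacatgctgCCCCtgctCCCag
ACIN1, chr14:23090102-23090141, minus strand, 18 cytosines: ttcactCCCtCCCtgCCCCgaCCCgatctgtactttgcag
The next pair precedes exons with lower PSI in every +Dox library.
ESRRA, chr11:64314961-64315000, plus strand, 20 cytosines: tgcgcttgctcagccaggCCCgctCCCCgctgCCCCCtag
BTBD2, chr19:2013881-2013920, minus strand, 22 cytosines: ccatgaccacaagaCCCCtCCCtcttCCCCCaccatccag
The last 4 show the range of the sequence itself: SMTN has the most cytosines of any member together with TTC31, RAN passes the limit with no run of 3, GOLGA2 is a gene that the study examined by RT-PCR, and the NUMB intron, with fewer than 16 cytosines, lies outside the class.
SMTN, chr22:31100845-31100884, plus strand, 28 cytosines: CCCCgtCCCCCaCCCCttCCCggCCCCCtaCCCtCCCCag
RAN, chr12:130872544-130872583, plus strand, 19 cytosines: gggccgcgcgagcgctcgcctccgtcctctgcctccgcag
GOLGA2, chr9:128272866-128272905, minus strand, 17 cytosines: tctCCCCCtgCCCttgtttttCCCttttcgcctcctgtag
NUMB, chr14:73316423-73316462, minus strand, 14 cytosines: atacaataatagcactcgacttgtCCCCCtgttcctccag

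The choice by cytosine count shaped the intron ends as a whole, and the following shares describe it without a comparison at equal count. A run of 3 cytosines (CCC, sought on the transcript strand only) was in 96.7% of their intron ends, against 33.8% before other exons and 45.5% before both kinds together, and CCCC was in 70.8% against 11.03% (22.2% of both together). The longest run was 15 bases. With more cytosines there were fewer thymines and adenines. The median was 18 cytosines, 10 thymines and 5 adenines before C-rich exons and 8, 16 and 8 before other exons. TTTT was in 11.6% against 60.2% (51.2% of both together). The tract was spread over the window, with a mean of 8.81 cytosines in the 20 bases farther from the exon and 9.36 in the nearer 20. The intron ended in CAG before 83.1% of C-rich exons and 56.7% of other exons.

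Their setting in the genome also differed. Median GC content of the exon was 58.6% for C-rich and 48.4% for other exons, the median intron before the exon was 882 against 2023 bases, and exon length was alike (median 118 and 113 bases). The first 40 bases of the next intron held at least 16 cytosines in 13.1% of C-rich and 3.75% of other exons. Chromosome 19 carried 235 C-rich exons (14%) and 6.2% of other exons. Of the C-rich exons, 1613 lie in protein-coding genes, 67 in lncRNA genes and 4 in genes of other types, and 1356 (80.5%) are coding in at least 1 including transcript. Their length was a multiple of 3, which keeps the reading frame, in 723 (42.9%), against 39.9% of other exons. C-rich exons were included more often: the median PSI over all libraries was 81.6% against 46.7%, and 541 had a mean PSI above 95%, 360 below 5%, and 780 from 5 to 95%.

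PCBP1 mRNA was first checked against the labels. It stood at 247.5, 269.5 and 266.9 CPM (estimated counts scaled to library size by TMM) in −Dox and at 1030, 936.4 and 1037 CPM in +Dox. It rose in +Dox by 1.94 on the log2 scale (SE 0.055, adjusted p = 5.22e-10, edgeR quasi-likelihood), with no overlap between the groups. The cassette and the endogenous gene were not separated. Its paralog PCBP2 was at 246 ± 7.78 CPM without Dox and 275.1 ± 1.81 with it (SD, n = 3), a fold change of 0.16 on the log2 scale (edgeR adjusted p = 0.0244). PCBP4 stood at 3.93 CPM without Dox and 4.86 with it (edgeR adjusted p = 0.185), and PCBP3 was too low to test. HNRNPK, whose protein also binds cytosine-rich RNA through KH domains, was at 907 ± 18.04 and 872.2 ± 34.1 CPM (SD, n = 3; edgeR adjusted p = 0.465).

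Genes that define K562 cells were present. Fetal globin HBG2 was at 3580 CPM without Dox and 3620 with it, the erythroid regulator GATA1 was at 164.2 and 178.3 CPM, and the T cell gene CD3E was too low to test. EPCAM, a gene of epithelia, was also detected, at 45.8 CPM without Dox and 42.3 with it. Red cell genes differed between the groups in both directions. EPOR, the erythropoietin receptor, went from 16.3 ± 0.705 to 31.8 ± 1.14 CPM (SD, n = 3; edgeR adjusted p = 6.52e-07), and the erythroid transcription factors KLF1 and TAL1 were higher by 0.46 and 0.44 on the log2 scale (edgeR adjusted p = 0.00121 and 8.34e-05). TFRC, the transferrin receptor, went from 908.7 ± 13.5 to 717.6 ± 49.0 CPM (SD, n = 3; edgeR adjusted p = 8.56e-04). GATA1, NFE2, HBG1 and HBG2 did not pass the test, with log2 fold changes of 0.12, −0.10, −0.12 and 0.016. Whether these differences in red cell genes have a part in the inclusion values was not tested.

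Averaged over the 1681 C-rich exons with a PSI in every library, inclusion was slightly higher in +Dox. Mean PSI was 59.64, 59.62 and 59.67% in −Dox replicates 1, 2 and 3, and 60.40, 60.50 and 60.50% in +Dox replicates 1, 2 and 3. The groups did not overlap, and the mean difference was 0.828 percentage points (59.64 ± 0.026% against 60.47 ± 0.057%; SD, n = 3). The median exon differed by 0.135 points, and the middle 50% of exons lay between −0.674 and 2.04 points. The median was 0.0803 without −Dox replicate 1, 0.0791 without −Dox replicate 2 and 0.0533 in estimated counts, where the mean was 0.539 points. PSI was higher in +Dox for 923 exons (54.9%), lower for 638 (38.0%) and equal for 120.

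Other exons showed a smaller difference. Their mean PSI was 48.42, 48.20 and 48.33% in −Dox and 48.50, 48.59 and 48.48% in +Dox, a mean difference of 0.206 points over 7343 exons with a median of 0, and here too the groups did not overlap. The mean PSI of C-rich exons exceeded that of other exons by 11.22, 11.42 and 11.34 points in −Dox and by 11.91, 11.91 and 12.03 points in +Dox. The gap between the classes thus widened by 0.621 points, with every +Dox library above every −Dox library, and by 0.390 points in estimated counts. Over the 26670 tested events with a PSI in every library, the mean difference was 0.271 points and the median 0, again without overlap between the libraries of the groups. No p-value is given for these averages, since the exons were picked with earlier results of the same libraries known, and 3 libraries against 3 could not go below 0.1 in an exact permutation test.

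**Figure D1:**
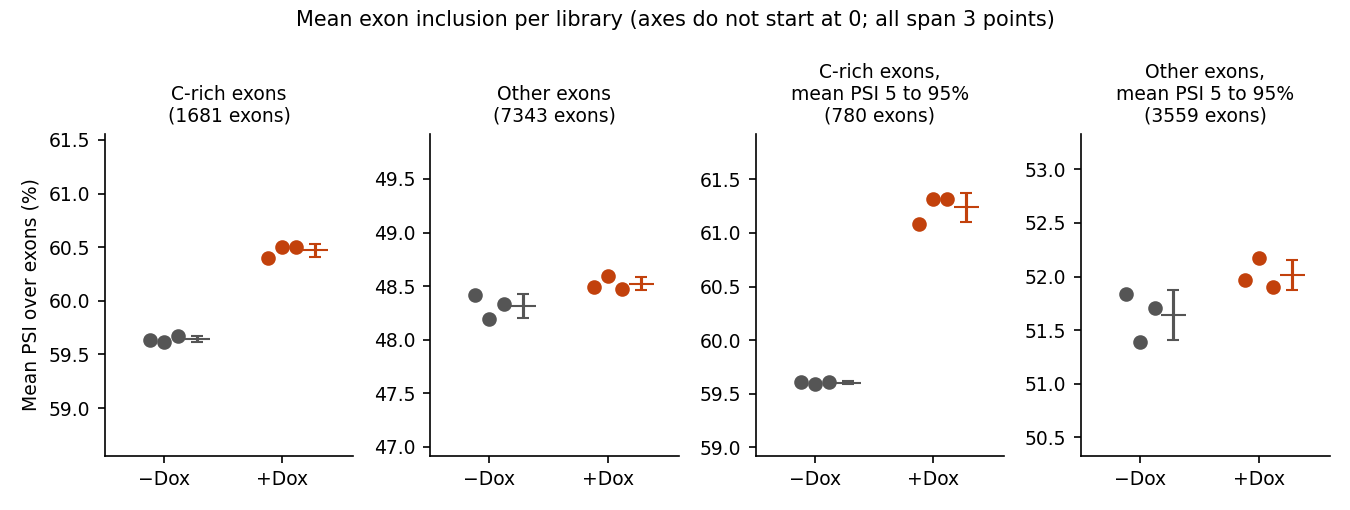
Mean PSI (%) over exons in each −Dox (grey) and +Dox (orange) library, for C-rich and other exons, over all of them and over those with a mean PSI of 5 to 95%; each point is a library and the bar beside it the mean ± SD of 3 libraries. The −Dox and +Dox points of C-rich exons lie 0.828 points apart on average, and those of other exons 0.206 points.

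The difference was larger among exons that are neither almost always nor almost never included. Among the 780 C-rich exons with a mean PSI of 5 to 95%, mean PSI was 59.61, 59.59 and 59.61% in −Dox and 61.09, 61.32 and 61.32% in +Dox. That is a mean difference of 1.64 points and a median of 1.11, and 478 of these exons (61.3%) were higher in +Dox. A difference above 5 points was seen in 196 of them (25.1%) upward and in 81 (10.4%) downward. The 3559 other exons in that range had a mean difference of 0.371 points and a median of 0.316, with 15.9% above 5 points upward and 12.3% downward. By level, the mean difference of C-rich exons was 0.426 points at a PSI of 5 to 35%, with overlap between libraries, 2.45 points at 35 to 65% and 1.97 points at 65 to 95%. Other exons had 0.141, −0.174 and 0.798 points at these levels, with overlap between libraries in all but the last. The level of 65 to 95% held 428 of the 780 C-rich exons and 1558 of the 3559 other exons. The part of the PSI level in the gap between the classes was not tested.

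**Figure D2:**
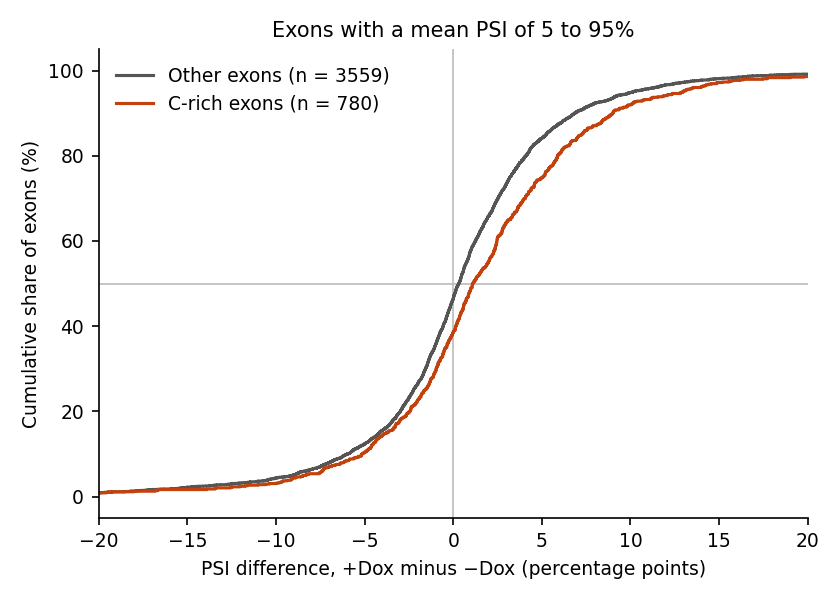
Cumulative share of exons (%) against the PSI difference, +Dox minus −Dox, in percentage points, for the 780 C-rich (orange) and 3559 other (grey) exons with a mean PSI of 5 to 95%. The C-rich curve runs to the right of the other through most of the range, and it crosses 50% at 1.11 points against 0.316.

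Single exons were tested by limma on log2(included / skipped TPM), with 0.1 TPM added to both, over all 26733 events. P-values were adjusted by Benjamini-Hochberg over all of them. The limits, a difference above 5 points with an adjusted p under 0.05, took their numbers from the study. The study set them on another test, rMATS on aligned reads with a limit on read counts, and reported many significant skipped exons with PCBP1 overexpression. That test could not be run on transcript abundances. By limma on TPM ratios none of the 1684 C-rich exons passed, and 0% of all events did. With 200 changed events simulated, a log2 ratio shift of 1.5 put 0% past the adjusted limits and a shift of 3 put 26.5%. Of those 200 events, 75 and 104 changed by over 5 points at these shifts. The smallest adjusted p of a C-rich exon was 0.230. An unadjusted p under 0.05 was reached by 148 C-rich exons (8.79%) and 7.06% of all events. Among the 148 is the exon of TNFRSF1A, with a PSI of 100% in every library (unadjusted p = 0.0173 by limma). Its skipped TPM was 0 throughout, so the log2 ratio there followed the including transcripts alone. With estimated counts in place of TPM, 1 C-rich exon passed, in ESRRA, and CDK2 had an adjusted p of 0.0491 by limma with a difference of 3.797 points. The exons named below are therefore described by their values and none of them is a call at the adjusted limits.

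At an unadjusted p under 0.05 and a difference above 5 points, 52 C-rich exons (3.09%) were more included in +Dox, where 1.84% of all events were, and 14 (0.831%) were more skipped, where 1.31% of all events were. In estimated counts 27 were more included and 7 more skipped, and with a limit of 0.1 TPM on the event level 23 were more skipped. The share of all events is not given for these alternatives, so their counts have no background beside them. Of other exons, 1.61% were more included and 1.38% more skipped in TPM. In the simulation, unchanged events also passed these unadjusted limits, counted in both directions together. Their share was 2.36% at a shift of 1.5 and 2.21% at a shift of 3. Some of the exons past these limits may therefore be unchanged. Every +Dox library lay above every −Dox library in 146 C-rich exons (8.67%; 5.91% of all events) and below in 61 (3.62%; 4.36% of all events). The 52 exons differed by 5.03 to 47.5 points, with a median of 9.35. The largest difference, in SEPTIN1, was singled out after its value was seen: PSI was 53.03, 38.52 and 27.51% in −Dox and 100, 100 and 61.54% in +Dox, at an event level of 1.35 TPM. Their median PSI was 77.1% in −Dox and 89.1% in +Dox. Of the 52, 44 are coding in an including transcript and 18 have a length that is a multiple of 3. In fits that dropped a library each, 19 of the 52 and 2 of the 14 kept both limits in all 6 fits.

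CDK2 (ENSG00000123374.11), the cyclin-dependent kinase of S phase entry, held the more included exon with the smallest p. The exon of 102 bases lies on chromosome 12 from 55969475 to 55969576, after the window with 22 cytosines printed above, and is coding in 1 of its 5 including transcripts. PSI was 90.67, 87.76 and 90.32% in −Dox and 97.96, 97.19 and 97.90% in +Dox. All +Dox values were above all −Dox values, by a mean of 8.10 points (log2 ratio difference 2.21, SE 0.249, adjusted p = 0.265 by limma). The skipping transcripts were at 5.04, 6.84 and 5.28 TPM in −Dox and 1.098, 1.61 and 1.11 TPM in +Dox, while the including transcripts were between 49.0 and 55.6 TPM in all libraries. CDK2 as a gene differed by 0.12 on the log2 scale (edgeR adjusted p = 0.102).

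TSPAN32 (ENSG00000064201.16) encodes a tetraspanin of blood cells, and its exon of 75 bases lies on chromosome 11 from 2308736 to 2308810. PSI was 83.08, 77.09 and 85.53% in −Dox and 94.57, 95 and 95.86% in +Dox. The groups were 13.2 points apart without overlap (adjusted p = 0.297 by limma). Here the gene itself was higher in +Dox, by 0.59 on the log2 scale (edgeR adjusted p = 0.00318). Included TPM went from between 2.91 and 3.52 to between 4.87 and 5.55, and skipped TPM from between 0.593 and 0.922 to between 0.240 and 0.289.

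The other 6 of the 8 more included exons with the smallest p and no overlap covered both ends of the PSI scale. TIMM50, a subunit of the mitochondrial inner membrane translocase, had PSI values of 91.64, 90.97 and 89.46% in −Dox and 95.78, 97.64 and 96.45% in +Dox. LENG8 had 87.37, 83.00 and 86.58% in −Dox and 93.24, 92.32 and 92.11% in +Dox. PPCDC, an enzyme of coenzyme A synthesis, had 87.70, 87.46 and 96.01% in −Dox and 100, 100 and 98.39% in +Dox. These 3 exons were largely included without Dox and more so with it. The adhesion molecule MCAM was listed at 100% in all +Dox libraries, with 97.10, 74.26 and 85.44% in −Dox, a wide spread that rests on skipping transcripts between 0.481 and 5.52 TPM. In APOC1, an apolipoprotein gene, PSI was 6.95, 4.52 and 10.1% in −Dox and 21.5, 24.9 and 21.9% in +Dox, so the exon remained in the minority form. The zinc importer SLC39A10 had 0.692, 0 and 0% in −Dox and 2.77, 6.98 and 6.02% in +Dox, from including transcripts of at most 1.35 TPM.

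The share of a form depends on the scale for these exons. TPM weighs a short transcript more than its reads do, and in estimated counts the difference was 0.0849 points for SLC39A10, 0.124 for MCAM and 1.58 for TIMM50, against 5.03, 14.4 and 5.93 points in TPM. For CDK2, TSPAN32, PPCDC, LENG8 and APOC1 it was 3.797, 7.07, 6.74, 8.07 and 20.4 points. All 52 exons kept their direction in estimated counts, and 24 of them kept both limits; of the 14 more skipped, all kept their direction and 6 both limits. Leaving out a library also mattered: the limits were kept in all 6 such fits by CDK2, TSPAN32, PPCDC, TIMM50, MCAM, APOC1 and LENG8, but in only 2 by SLC39A10.

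On the side of skipping, ESRRA (ENSG00000173153.17), the nuclear receptor ERRα of energy metabolism, had the smallest p of any C-rich exon. Its exon of 270 bases lies on chromosome 11 from 64315001 to 64315270. PSI was 33.72, 24.19 and 33.18% in −Dox, and the including transcript was listed at 0 in all +Dox libraries (difference −30.4 points, adjusted p = 0.230 by limma; adjusted p = 0.0392 by limma on estimated counts). The including transcript was at 0.542 to 0.977 TPM in −Dox, and the only skipping transcript is annotated as one with a retained intron. The skipping transcript was at 1.205 to 2.29 TPM over all libraries, and the gene differed by −0.077 on the log2 scale (edgeR adjusted p = 0.408).

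BTBD2 had PSI values of 11.8, 12.6 and 13.1% in −Dox and 6.83, 4.63 and 4.02% in +Dox (adjusted p = 0.453 by limma). Its exon, on chromosome 19 from 2013547 to 2013880, is included in 1 transcript annotated for nonsense-mediated decay, and in estimated counts the difference was −2.20 points against −7.33 in TPM. P2RX1, an ATP-gated channel of platelets and their precursors, had 73.79, 71.20 and 65.22% in −Dox and 59.93, 57.12 and 57.09% in +Dox. AP1M1, a subunit of the clathrin adaptor AP-1, had 86.86, 86.69 and 89.16% in −Dox and 82.06, 81.81 and 79.56% in +Dox. In these 3 genes the groups stood apart while both forms were detected in every library. ENO3, the muscle form of enolase, stood at 33.2 ± 3.72% in −Dox and 23.6 ± 1.37% in +Dox (SD, n = 3). GLMP, a lysosomal membrane protein, was at 87.9 ± 6.35 and 74.4 ± 4.36%, and the kinase gene MAPK12 at 94.0 ± 2.53 and 87.2 ± 3.44% (SD, n = 3). As in BTBD2, the exons of P2RX1 and ENO3 are included only in 1 transcript annotated for nonsense-mediated decay. The MAPK12 exon is included only in transcripts annotated with a retained intron. DPP3, a dipeptidyl peptidase, was at 99.3 ± 1.28% in −Dox and 90.9 ± 6.31% in +Dox, where replicate 3 alone was at 83.68%. Adjusted p-values of P2RX1, AP1M1, ENO3, GLMP, MAPK12 and DPP3 lay between 0.558 and 0.667 by limma. In the fits that dropped a library each, ESRRA and BTBD2 kept both limits in all 6. DPP3 kept them in 5, AP1M1 in 4, and P2RX1, ENO3, GLMP and MAPK12 in 2.

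**Figure D3:**
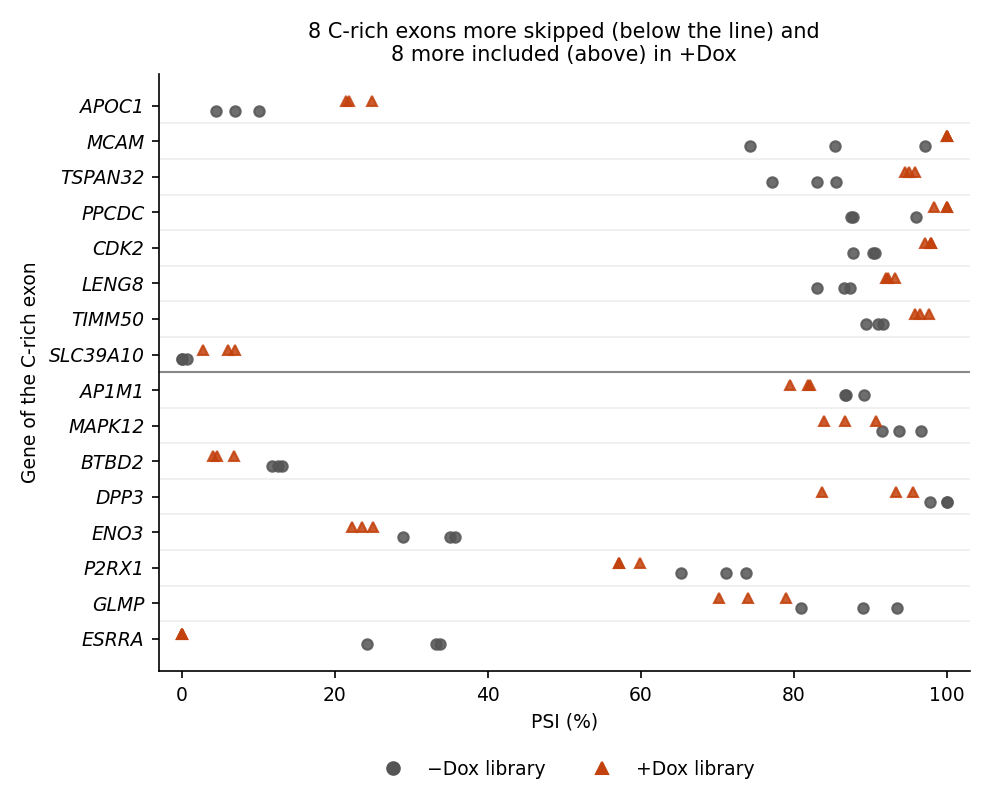
PSI (%) in each −Dox (grey circles) and +Dox (orange triangles) library for 16 C-rich exons named by gene, 8 more included in +Dox above the line and 8 more skipped below it. The exons were selected for groups that do not overlap, so the separation is part of the selection; 0% of events passed the adjusted limits.

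Among genes of the red cell and megakaryocyte lineages, 15 had a C-rich exon, of which 2 were more included at the unadjusted limits and 0 more skipped, where 1.84% and 1.31% of all events were. Over the 15 the median difference was 0 and the mean 1.02 points, and the 34 other exons in genes of this list had a larger median of 0.115 and mean of 1.798 points. RUNX1, a transcription factor of blood cell formation, has an exon of 192 bases on chromosome 21 from 34834410 to 34834601 after an intron end with 26 cytosines. PSI was 87.00, 83.21 and 82.22% in −Dox and 91.82, 95.56 and 92.49% in +Dox (adjusted p = 0.620 by limma). GFI1B, a repressor needed for red cells and platelets, had 67.00, 73.35 and 81.46% in −Dox and 83.70, 84.95 and 85.29% in +Dox (adjusted p = 0.684 by limma). The values of both genes did not overlap between groups, though −Dox replicate 3 of GFI1B was close to the +Dox libraries. In estimated counts the difference was 2.25 points for RUNX1 and 10.0 points for GFI1B. RUNX1 kept both limits in all 6 fits that dropped a library each, but GFI1B in only 1. DMTN, the red cell membrane protein dematin, was at 63.7 ± 8.37% in −Dox and 58.7 ± 1.31% in +Dox (SD, n = 3; adjusted p = 0.844 by limma), and the C-rich exon of TPM1 was listed at 0% in every library.

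Of splicing factors and other RNA-binding proteins, 19 had a C-rich exon. At the unadjusted limits 2 were more included and 1 more skipped (1.84% and 1.31% of all events), and the median difference was −0.050 points and the mean 0.389, against 0.046 and 0.235 in the 123 other exons of the list, so that median and mean of the C-rich exons differed in sign. ACIN1, a part of the complex laid down at exon junctions, had PSI values of 57.08, 50.54 and 57.25% in −Dox and 67.95, 63.71 and 66.81% in +Dox (adjusted p = 0.652 by limma). MBNL2, a regulator of splicing during development, had 12.2, 6.83 and 8.99% in −Dox and 15.4, 15.6 and 12.9% in +Dox (adjusted p = 0.696 by limma), and the difference of 5.30 points was 0.498 in estimated counts. U2AF1L4, a paralog of the small U2AF subunit, went the other way, with 61.32, 66.74 and 57.40% in −Dox and 33.52, 52.82 and 49.15% in +Dox (adjusted p = 0.696 by limma). Of the 6 fits that dropped a library each, ACIN1 kept both limits in 3, and MBNL2 and U2AF1L4 in 1. With the replicate number as a term, the unadjusted p by limma was 0.0559 for ACIN1, 0.0764 for MBNL2 and 0.0540 for U2AF1L4. HNRNPA1, a repressor of splice sites, held one of the most abundant events, at a mean of 2016 TPM, and its exon was at 99.60 to 99.87% in −Dox and 99.91 to 99.94% in +Dox, a difference of 0.163 points that was 0.0025 in estimated counts.

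Chromatin enzymes had 29 C-rich exons, with 1 more included and 0 more skipped (1.84% and 1.31% of all events, and 3.09% and 0.831% of C-rich exons), a median difference of 0.141 points and a mean of 1.25. The 87 other exons of the list had a median of 0.112 and a mean of 0.219 points. The one was in SIRT6, an NAD-dependent deacylase of histones, with 80.17, 84.66 and 79.71% in −Dox and 92.17, 89.26 and 96.90% in +Dox (adjusted p = 0.624 by limma). KDM6B, a demethylase of histone H3, had PSI values of 5.87, 0 and 0% in −Dox and 20.3, 24.98 and 0% in +Dox. The KDM6B event had a mean level of 1.699 TPM, and its difference was 13.1 points in TPM and 0.241 in estimated counts. ASH1L was at 0% in all libraries but +Dox replicate 2, at 13.9%, and NSD2 between 96.47 and 100% in all, with a difference of 1.46 points in TPM and 0.041 in estimated counts.

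Genes of iron and heme had 13 C-rich exons, none past the unadjusted limits in either direction by limma, with a median difference of −0.046 points, a mean of 0.092, and 5 exons higher and 8 lower in +Dox. The 54 other exons of the list had a median of 0.109 and a mean of 0.770 points. The smallest p was in UROS, uroporphyrinogen III synthase of heme synthesis (adjusted p = 0.636 by limma). Its exon was a minor form, at 3.804, 3.68 and 3.54% in −Dox and 2.42, 2.61 and 1.78% in +Dox, a difference of −1.40 points that was −3.12 in estimated counts, while the gene rose by 0.75 on the log2 scale (edgeR adjusted p = 1.42e-06). ALAS1, the first enzyme of heme synthesis in most tissues, was at 45.26, 39.68 and 37.95% in −Dox and 47.10, 47.26 and 47.27% in +Dox (adjusted p = 0.764 by limma). ABCB8, a transporter of the mitochondrial inner membrane, was at 75.7 ± 3.93 and 81.6 ± 1.48%, and ISCA2, an iron-sulfur assembly factor, at 96.2 ± 6.63 and 86.8 ± 6.45% (SD, n = 3), both with overlap. The difference for ISCA2 was −9.37 points in TPM and −1.095 in estimated counts. Cell cycle and apoptosis genes had 16 C-rich exons, 11 higher and 4 lower in +Dox, with a median of 0.507 and a mean of 2.34 points against 0.164 and −0.025 in the 66 other exons of the list. CDK2 was the 1 past the unadjusted limits, where 1.84% of all events were more included. E2F6, a repressor of the E2F family, had 53.74, 53.14 and 54.22% in −Dox and 62.06, 61.44 and 58.73% in +Dox (adjusted p = 0.722 by limma), and CDK10 had 45.9 ± 2.31% in −Dox and 58.7 ± 9.93% in +Dox (SD, n = 3). TNFRSF1A, a TNF receptor, was included at 100% in every library.

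Of the 6 genes whose splicing the study examined by RT-PCR, the event with the highest level was C-rich in GOLGA2, TMEM222 and CARM1. These events need not be the ones that the primers span. In GOLGA2, a structural protein of the Golgi, the exon of 81 bases on chromosome 9 from 128272785 to 128272865 had PSI values of 27.00, 27.41 and 27.93% in −Dox and 33.26, 36.28 and 32.67% in +Dox. The groups were 6.62 points apart without overlap (adjusted p = 0.722 by limma). TMEM222 was at 19.02 ± 3.38% in −Dox and 23.7 ± 2.84% in +Dox (SD, n = 3), with overlap, and CARM1 was between 99.25 and 100% in all libraries. The exons of NUMB, NQO2 and DIS3 had 14, 13 and 11 cytosines and differed by 4.20, 0.199 and 0.664 points, each with overlap, and by 7.14, 0.012 and −0.215 points in estimated counts. With PCBP1 overexpression the study reported more inclusion in GOLGA2 and TMEM222, no change in CARM1 and more skipping in NUMB. The NUMB event here thus went the other way. The study examined NQO2 and DIS3 after iron chelation.

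Exons named for their tract or their level, not for a difference, stood mostly with overlap. The 4 exons with the most cytosines, in SMTN and TTC31 with 28 and in ERF and CLASRP with 27, differed by 2.35, −4.39, −22.8 and −0.287 points, each with overlap between groups. The ERF values ranged from 0 to 100% among the −Dox libraries. Of the 4 most abundant events with a mean PSI of 5 to 95%, in RAN, TPM3, ELOB and PRDX5 at 369.1, 367.5, 256.4 and 214.7 TPM, all differed by less than 3 points in TPM, with 2.30, −0.018, −0.509 and 0.678 points, against 4.59, 0.041, 0.080 and 0.459 points in estimated counts. Only in PRDX5, an antioxidant enzyme, were all +Dox values higher, at 92.93, 92.93 and 93.45% against 92.38 to 92.48% in −Dox.

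Across both classes the inclusion difference was mostly higher where the intron end held more cytosines, without a step at 16. Mean differences were 0.264 points at 0 to 3 cytosines (678 exons), 0.048 points at 4 to 7 cytosines (2573 exons), 0.120 at 8 to 11, 0.321 at 12 or 13, and 0.668 at 14. Just outside the limit, 308 exons with 15 cytosines differed by 1.20 points (57.83% in −Dox and 59.03% in +Dox), and just inside, 444 exons with 16 differed by 0.669 points (56.55 and 57.22%). At 16 the libraries overlapped, with 56.07, 56.62 and 56.95% in −Dox and 56.92, 57.64 and 57.09% in +Dox, as they did in every class up to 12 or 13, while at 14, 15 and 17 they did not. Exons with 18 or 19 cytosines differed by 0.854 points, those with 20 to 22 by 1.27 points, and the 81 with 23 or more by 0.335 points with overlap between the libraries of the groups. The lowest level among members was 1.003 TPM in EOLA2-DT, and the event just below the limit, in SERF2, was at 0.999 TPM.

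**Figure D4:**
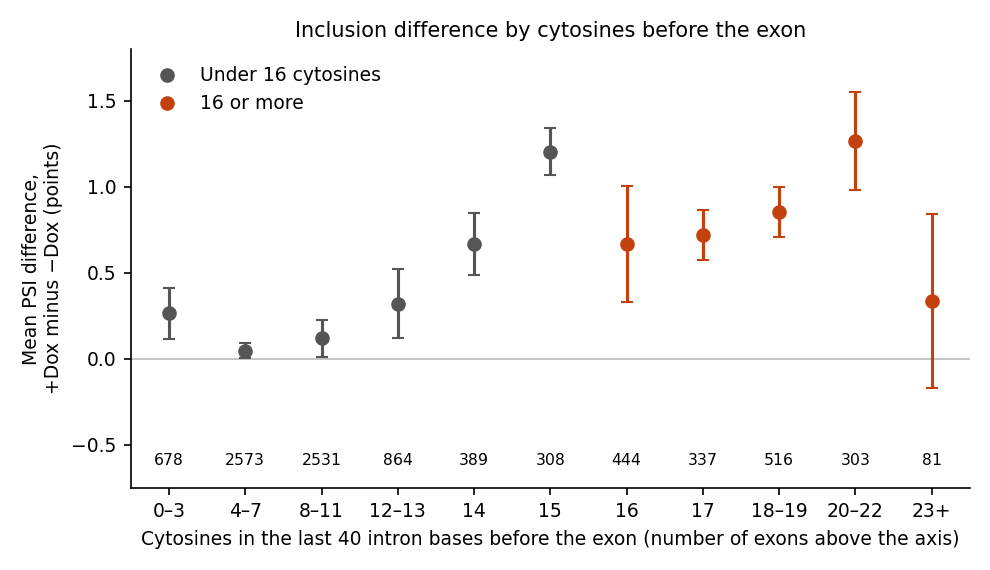
Mean PSI difference, +Dox minus −Dox, in percentage points, by the number of cytosines in the last 40 intron bases, for exons under 16 (grey) and with 16 or more (orange); bars are the standard error over the 3 libraries of each group and the numbers above the axis are numbers of exons. Values run from 0.048 to 0.264 points up to 11 cytosines and lie at 0.668 points at 14 and 1.27 points at 20 to 22, with 1.20 points at 15, outside the class.

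The arrangement of the cytosines was looked at among the C-rich exons alone. Those with no run of 3 or a single one differed by 0.389 (56 exons) and 0.276 points (341 exons), both with overlap between the libraries of the groups, those with 2 runs by 0.897 points (588 exons), with 3 by 1.06 points (463 exons) and with 4 or more by 1.095 points (233 exons). By the longest run the values went up and then down, from 0.578 points at 2 or 3 bases to 0.791 at 4, 1.215 at 5, 0.928 at 6 and 0.501 at 7 or more, the last pair with overlap. By the number of thymines in the window there was no order, with 0.960 points at 0 to 7, 1.02 at 8 to 11, 0.311 at 12 to 15 and 1.20 at 16 or more. By length of the intron before the exon, in 3 classes from short to long, the values were 0.887, 0.787 and 0.804 points. Exons of 31 to 90 bases differed by 0.285 points, those of 91 to 150 bases by 0.957 points and longer ones by 1.20 points. These breakdowns and those that follow were chosen after the values were seen.

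Cytosines on the far side of the exon went with the difference as well. Among C-rich exons with 0 to 7 cytosines in the first 40 bases of the next intron, the mean PSI was 56.65, 56.69 and 56.40% in −Dox and 56.93, 56.65 and 56.71% in +Dox, a difference of 0.180 points with overlap (549 exons). It was 0.729 points with 8 to 11 cytosines there (551 exons), 1.58 with 12 to 15 (362 exons) and 1.45 with 16 or more (219 exons), without overlap between libraries in these 3 groups. Other exons had −0.036, 0.374, 0.658 and 1.23 points in these classes, highest in the last, while C-rich exons were highest at 12 to 15. Libraries of other exons overlapped between groups at 0 to 7 and at 8 to 11 cytosines, and not in the higher classes. Other exons with 16 or more cytosines after them (275 exons) therefore differed by more than the C-rich exons as a whole. Within each of these 4 strata the C-rich value was above the other, by amounts that were not tested.

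**Figure D5:**
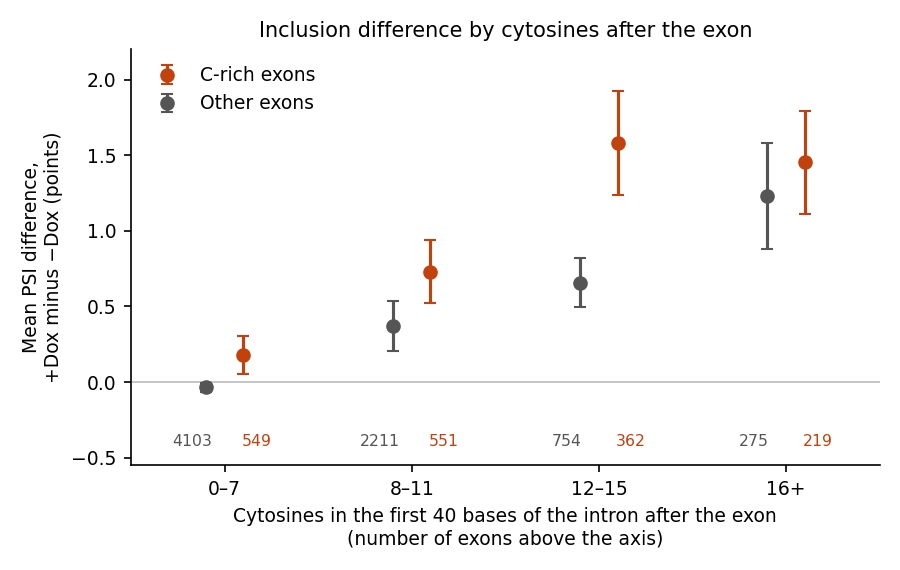
Mean PSI difference, +Dox minus −Dox, in percentage points, by the number of cytosines in the first 40 bases of the intron after the exon, for C-rich (orange) and other (grey) exons; bars are the standard error over the 3 libraries of each group and the numbers above the axis are numbers of exons. C-rich exons go from 0.180 to 1.45 points and other exons from −0.036 to 1.23 points between the lowest and the highest class.

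The GC content of the exon moved with the difference too. Other exons under 45% GC differed by 0.0067 points, with overlap between libraries, and those of 65% or more by 0.963 points. C-rich exons of 65% or more (324 exons) differed by 1.09 points. The 107 C-rich exons under 45% GC showed no direction: mean PSI was 34.61, 35.03 and 34.14% in −Dox and 33.60, 34.91 and 34.16% in +Dox, with overlap, and the mean difference of −0.376 and the median of 0.013 points had opposite signs. In exons of 45 to 65% GC in both classes, the C-rich mean difference was 0.864 points and exceeded that of other exons by 0.574 points. In exons with under 12 cytosines after them in both classes, these values were 0.455 and 0.347 points. The measures are linked, since across 7819 exons, 1 per gene, Spearman's rho with the cytosines before the exon was 0.468 for exon GC and 0.282 for cytosines after the exon. With the PSI difference, rho was 0.061 for the cytosines before, 0.088 for those after and 0.075 for exon GC, over exons that share the same 6 libraries. The part of each measure in the difference was not tested.

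Expression of the 1684 genes with a C-rich exon was compared beside the inclusion values. By edgeR, 269 of these genes (15.97%) were higher in +Dox and 204 (12.1%) lower at an adjusted p under 0.05, where 8.16% of all 21045 genes tested were higher and 7.68% lower. The lower genes numbered 128 without −Dox replicate 3 and 132 without +Dox replicate 3, with no share of all genes given for these fits. Genes with other exons only, which passed the same limit on level, had 12.5% higher and 11.8% lower. The median log2 fold change was 0.0083, and 6 of the genes changed more than the study's limit of 1 on the log2 scale, as did 37 of the 6143 genes with other exons only and 308 of all 21045. Of the genes of the 52 more included exons, 9 were higher and 7 lower, and of the 14 more skipped, 3 were higher and 1 lower. LENG8 (−0.34) and TIMM50 (−0.30) were lower (edgeR adjusted p = 0.00114 and 0.00193) while their exons had higher PSI, and ENO3 (0.65) and BTBD2 (0.45) were higher (edgeR adjusted p = 2.63e-04 and 0.00168) while theirs had lower PSI.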

How the data were processed

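Messenger RNA of 3 −Dox and 3 +Dox K562 libraries was sequenced by the authors (polyA, paired ends of 150 cycles) and quantified per transcript with Salmon 1.10.2. They deposited an estimated count, not scaled, and a TPM value, scaled for effective length and library size, for each of 252045 transcripts per library. Index, strand and bias settings are not given in the sources used here, so overlapping genes and near-identical copies are uncertain. Depth was 70905656 to 84177316 estimated counts per library. Libraries of one group differed by 5.74 to 10.8 times the variance that sampling gives (13743 genes), so none was counted as a repeat of another.

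Transcripts were matched to GENCODE 44 (251612 matched, 433 did not). PSI is 100 × included TPM / (included + skipped TPM). It is an estimate of transcript shares, so forms that also differ outside the exon enter it, and no junction reads were counted. Tested were events whose 2 forms together averaged 1 TPM or more, with 10 or more estimated counts on average for at least one form, using limma 3.58.1 (log2 ratio, pseudocount 0.1 TPM; two-sided; moderated over all events). Genes with a mean count above 10, rounded, were tested with edgeR 4.0.16 (quasi-likelihood, TMM) in R 4.3.3, and with DESeq2 1.42.0 as an alternative. Tables and figures were made with Python 3.11.15, pandas 2.3.3 and matplotlib 3.10.9. The steps were tested on simulated data. The members, the gene lists and the comparisons were chosen with earlier results of these data known.

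Exons named are the 8 more included and 8 more skipped with the smallest p (unadjusted p under 0.05, over 5 points, no overlap), the 4 with the most cytosines, the 4 most abundant with a mean PSI of 5 to 95%, the highest event of 6 genes examined by RT-PCR, and up to 4 per list of 5 lists by p. Alternatives were other pseudocounts, limits on TPM, cytosines or difference, estimated counts, other choices of event per gene, each library left out and the replicate number as a term.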

Additional observations from a re-analysis of the deposited data

How the results depend on the processing

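None of the alternatives turned the sign of the mean or the median difference of C-rich exons, or of the gap to other exons. Under a mean event TPM of at least 5, the mean difference was 0.711 points and the gap 0.530, with 34 more included and 9 more skipped, over fewer exons. With a TPM of at least 0.1, 23 were more skipped and the median was 0.0418 points. A limit of 10 points left 25 more included and 4 more skipped. Estimated counts gave 1 exon past the adjusted limits and lower values otherwise: 27 more included, 7 more skipped, a median of 0.0533, a mean of 0.539 and a gap of 0.390 points. With at least 14 cytosines, 28 were more skipped and the mean was 0.736 points; with at least 18, 8 were more skipped, and median, mean and gap were 0.159, 1.01 and 0.762 points. All events in place of 1 per gene gave 89 more included and 30 more skipped, with 0.104, 0.932 and 0.721 points; 1 event per gene over both classes gave 34 and 7, with 0.249, 1.02 and 0.836 points. In the range of 5 to 95% the median, mean and gap were 1.11, 1.64 and 1.27 points. Leaving out 1 library at a time, the median ran from 0.0791 to 0.133 points (0.0791 and 0.0803 with −Dox replicate 2 or 1 left out), the mean from 0.811 to 0.861, the gap from 0.568 to 0.669, the more included from 40 to 53 and the more skipped from 13 to 19. Further alternatives were added after the data were seen. Protein-coding genes only gave a mean of 0.841 points. In exons of 45 to 65% GC, 32 were more included. With under 12 cytosines in the next intron, 21 were more included, and median, mean and gap were 0.083, 0.455 and 0.347 points. The cause of these shifts was not tested. Counts of exons past the limits are given here without the share of all events under the same alternative.

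Deviations of −Dox and +Dox libraries of the same replicate number correlated at −0.022, −0.013 and −0.011 over exons. Libraries of unlike number were as close to no correlation (−0.0062 to 0.019), so exon ratios cannot decide whether the samples are paired. Over genes the values were −0.066, −0.16 and 0.024 at the same number and −0.13 to 0.193 at unlike numbers. With the replicate block, 44 C-rich exons were more included, 12 more skipped and 0 past the adjusted limits, and 218 genes were higher. PCBP1 kept a log2 fold change of 1.90 to 1.98 under all gene alternatives. DESeq2 gave 297 genes of C-rich exons higher and 245 lower. Leaving out 1 library gave 189 to 232 higher and 128 to 237 lower, the fewest (128 and 132) with −Dox or +Dox replicate 3 left out. The shares of all events and of all genes in these fits are not given.

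Of the exons named, the sign turned in estimated counts for DIS3 (−0.215), ELOB (0.080) and TPM3 (0.041). With 1 library left out, values ran from −2.60 to 3.35 points for DIS3, −1.98 to 1.19 for ELOB, −0.763 to 0.349 for CLASRP, −44.1 to 5.89 for ERF, −6.80 to 0.301 for TTC31, −0.166 to 0.574 for NQO2 and −0.513 to 0.938 for TPM3, all exons with overlap between groups. The ESRRA exon, at −34.6 points in estimated counts, passed the adjusted limits there. No sampling interval is given for PSI, since estimated counts are not independent reads of each form.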
